A study of Mus musculus with 28 samples.

Results

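The neuronal cell adhesion molecules examined here are 60 of the 23995 genes in the expression tables of an axon-TRAP study of mouse retinal ganglion cells (RGCs). They were chosen by symbol alone, as the numbered cadherins (Cdh) and non-clustered protocadherins (Pcdh), the neurexins, neuroligins 1 to 3, contactins 1 to 6, the contactin-associated proteins (Cntnap), Ncam1 and Ncam2, and the L1 family (L1cam, Chl1, Nrcam and Nfasc). The rule itself used no measured value, but it was set with earlier results of these data known. The 60 members fell into 12 subfamilies, the largest being the 13 type II cadherins, 7 contactin-associated proteins and 6 contactins. The word neuronal holds for most but not all of them, since the pattern of symbols also takes in cadherins best known from other tissues, such as Cdh5 of blood vessels and Cdh15 of muscle.

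Axon-TRAP purifies mRNA bound to tagged ribosomes that sit in the axons of another brain region. C57BL/6 RiboTag knock-in mice, whose Rpl22 allele gains an HA tag after recombination, were crossed with Pax6-alpha-Cre mice, in which Cre acts in progenitors of the peripheral retina, so that only a part of the retina's cells carry tagged ribosomes. Each of 3 sources was sampled with 2 biological replicates in the adult and at E17.5, P0.5 and P7.5, which gave 24 libraries. The sources were the superior colliculus (SC) of Cre-positive animals, where the tagged ribosomes should lie in RGC axons, the SC of Cre-negative littermates, which carry the RiboTag allele but no tagged ribosomes and so measure the background of the purification, and the retina of Cre-positive animals, taken as whole eyes. Each library came from a pool of 3 eyes or 6 SCs. A further 4 adult libraries, without replicates, came from Cre-positive animals, with SC and retina each taken before and after ribosome run-off. With 2 pools a group, p-values measure the spread between those pools.

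Cell adhesion molecules hold axons to each other and to their targets. Classical cadherins bind the same cadherin on the facing cell through calcium-dependent extracellular repeats and are tied to actin inside the cell by catenins, and delta-protocadherins are related neuronal proteins. Neurexins sit mainly on the presynaptic membrane and bind postsynaptic neuroligins. Contactins are anchored in the membrane by a lipid and pair with contactin-associated proteins or with L1 family members, whose inner tails bind ankyrin and, through it, spectrin. NCAM and the L1 family carry immunoglobulin and fibronectin repeats and are long known from growing and bundling axons, the optic nerve included.

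The start codons of the 6 members that were higher in Cre-positive SC than in retina at P0.5 are shown. Ribosome-bound mRNA is what was measured, and the start codon is where its translation begins. Each line holds the 10 bases before the start codon, the ATG in capitals and the 6 bases after it, in 5′ to 3′ direction of the gene, read from the GENCODE annotation of GRCm38. All 6 windows lie within a single exon and span the junction of 5′ UTR and coding sequence.
Cntn6 (chr6:104569029-104569047, plus strand): gaacgtggagATGaggttg
Nfasc (chr1:132642760-132642778, minus strand): ggtgctgaggATGgccagg
Cdh13 (chr8:118283844-118283862, plus strand): gtcgggcaagATGcagccg
Chl1 (chr6:103641961-103641979, plus strand): tttctgaggaATGatggaa
Pcdh19 (chrX:133687256-133687274, minus strand): ccgcgcagccATGgagtct
Nrxn2 (chr19:6428039-6428057, plus strand): cgccggaggcATGgcgctc

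The members are long genes. The median length of a protein-coding transcript was 3971.5 bases over the members and 1825.5 bases over all genes with an annotated length. Values are FPKM (fragments scaled to transcript length and to the mapped total), which divide by that length. Levels of different members are set side by side on this scale only, and for Ncam1 and Cntn1 it stood far above the level that read counts gave, as shown with their values.

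The libraries differed widely in what they detected. Genes at 1 FPKM or more numbered 3866 and 3788 in the P0.5 Cre-positive SC libraries and 1586 and 1646 in the Cre-negative ones, whereas at the other stages the Cre-negative replicate 1 held more of them than either Cre-positive library (4003 against 2419 and 2480 at E17.5, for example). Genes that every cell uses were listed at 0 in many libraries (Gapdh in 18 of the 24 and Hprt in 16), so an FPKM of 0 is given here as "listed at 0" and no fold is formed against it. The read totals are not part of these tables. Among genes with 1 annotated transcript of more than 600 bases, the lowest values clustered where a single read in 1 kb would lie. This was at 0.0872 to 0.158 FPKM in 10 libraries before the adult and at 0.801 to 2 FPKM in 3 adult libraries. An adult value of about 1 FPKM can thus stand for about 1 read per kb of transcript. No such cluster could be placed in the other libraries, which include every P0.5 SC library, so the value of 1 read is unknown there. Of the 10 RGC markers, 2 to 6 reached 1 FPKM in each group, and Rbpms was listed at 0 in every SC library. The retina libraries held lens crystallins and other lens genes at a summed 130.5 to 865.8 FPKM.

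Of the 60 members, 20 were listed at 0 in all 24 libraries, among them Cntn3, Cntn4 and Cntn5, 5 of the contactin-associated proteins and 10 cadherins. The other 40 were above 0 in at least 1 library, 33 of them in an SC library, and 28 reached 1 FPKM somewhere. Ncam1 and Cntn1 were above 0 in all 24 libraries. The highest value of a member fell in a Cre-positive SC library for 12 members, in a Cre-negative SC library for 16 and in a retina library for 12. A single library, E17.5 Cre-negative SC replicate 1, held the highest value of 8 members. In bulk material of this kind, fewer tagged axons and less ribosome-bound mRNA per axon cannot be told apart.

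**Figure D1:**
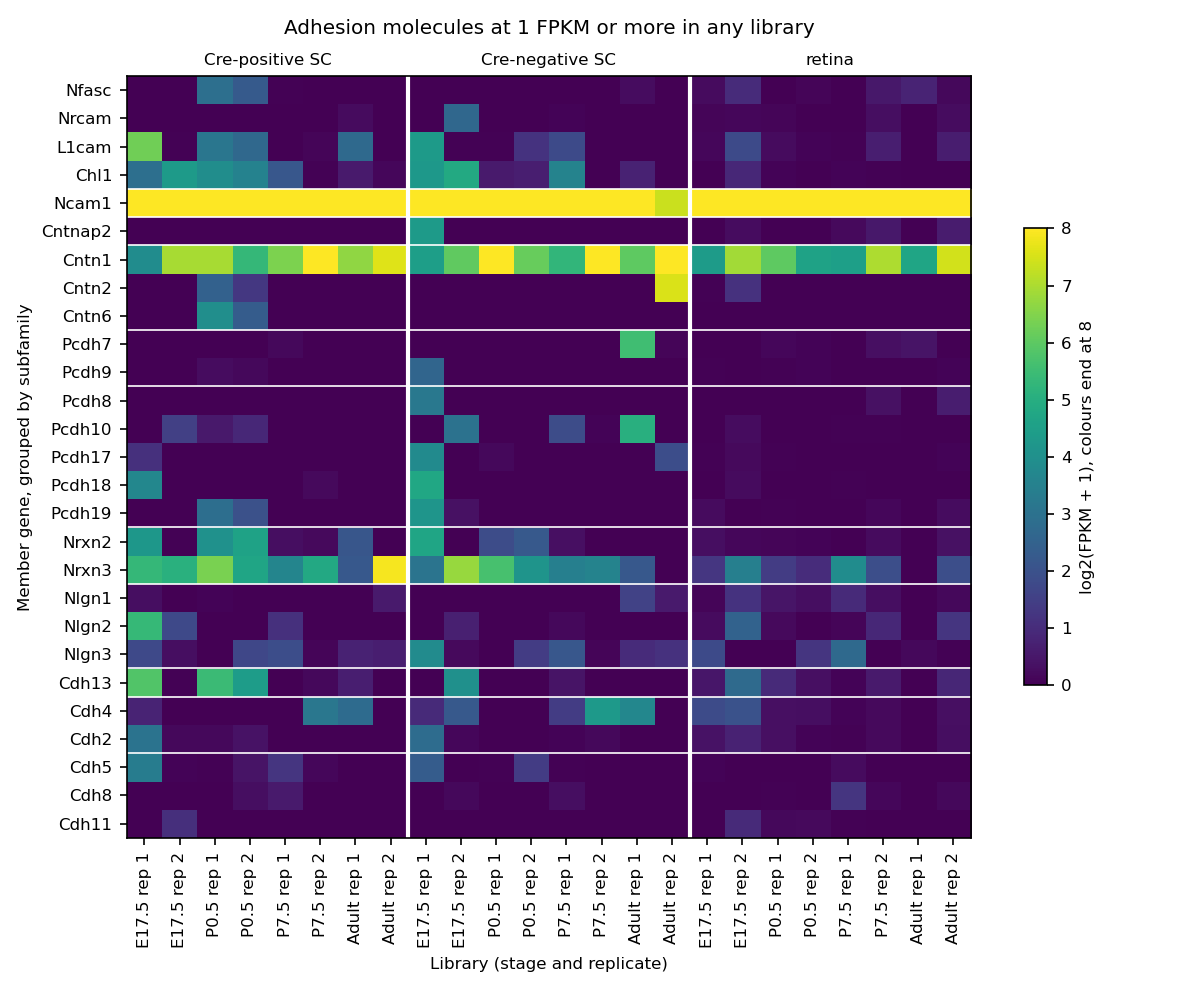
Heat map of log2(FPKM + 1) for members that reached 1 FPKM in any library (rows, grouped by subfamily) in the 24 libraries (columns, by source, stage and replicate), with colours that end at 8. Ncam1 and Cntn1 are filled throughout. Members at 1 FPKM or more in P0.5 Cre-positive SC are mostly so in both replicates, while others, such as Nlgn2 and Nrcam, are at 0 in both. In other groups many cells are filled in 1 replicate only.

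Among the SC groups, replicates agreed most closely on these genes in P0.5 Cre-positive SC. Agreement over all genes was not counted, so this is not a result about the members. The P0.5 Cre-positive libraries also held more genes at 1 FPKM (3866 and 3788) than the Cre-positive libraries of other stages. In Cre-positive SC at P0.5, 12 members reached 1 FPKM in both replicates and 1 member in only 1 of them. At E17.5 the same counts were 5 and 11, at P7.5 4 and 5, and in the adult 3 and 4. In Cre-negative SC they were 4 and 3 at P0.5, 4 and 16 at E17.5, 4 and 5 at P7.5, and 2 and 9 in the adult. At E17.5, 7 members, among them L1cam, Nlgn3, Nrxn2 and Pcdh18, reached 1 FPKM in replicate 1 of both the Cre-positive and the Cre-negative SC and in neither replicate 2. Only Chl1, Cntn1, Ncam1 and Nrxn3 reached it in all 4 E17.5 SC libraries.

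**Figure D2:**
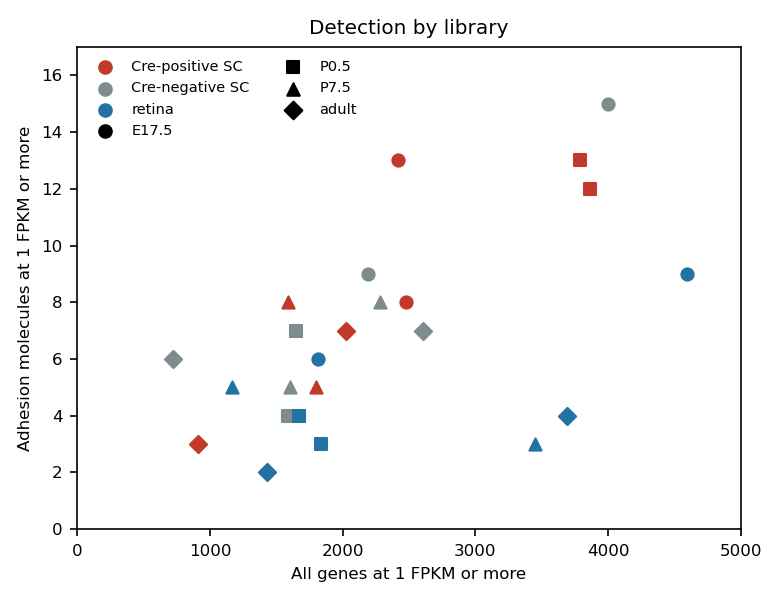
Members at 1 FPKM or more (vertical axis, number of genes) against all genes at 1 FPKM or more (horizontal axis, number of genes), 1 point per library, coloured by source and shaped by stage. The P0.5 Cre-positive SC libraries hold 12 and 13 members among 3866 and 3788 genes, and E17.5 Cre-negative SC replicate 1 holds the most, 15.

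Ncam1, the member with the highest mean FPKM in each source, encodes the neural cell adhesion molecule. Its FPKM in the 8 Cre-positive SC libraries had a lowest value of 347, a median of 1392 and a highest of 4193. The Cre-negative SC libraries spanned 163 to 3639 with a median of 1132, and the retina libraries 674 to 9060 with a median of 3882. The Cre-positive and Cre-negative ranges lay over each other at every stage, so the level of Ncam1 did not tell Cre-positive from Cre-negative SC. It made up 25.2% to 99.7% of the summed FPKM of all members in a library. The read counts of the adult run-off experiment gave a much lower level for this gene, and by reads per length Cdh4 (126 RPKM) and Cntnap2 (56.9) stood above it in SC. Without run-off, Ncam1 stood at 34.9 RPKM (reads scaled to length and library total) in SC and 38.4 in retina, while the mean adult FPKM was 486.6 in Cre-positive SC and 1519 in retina. That ratio of FPKM to read level, 13.9 in SC and 39.5 in retina, lay at the 95.7th percentile of 841 genes (median 0.39) and the 99.7th percentile of 1547 genes (median 0.46). GENCODE lists 7 transcripts of Ncam1 with lengths from 146 to 6564 bases, and an antisense gene, Gm11149, overlaps it. The part of either in the gap was not tested, and the FPKM of Ncam1 is best read within the 24 libraries only. Ncam2 was listed at 0 in all 16 SC libraries and reached at most 0.0369 FPKM in retina.

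Cntn1, contactin 1, came next and was likewise at 1 FPKM or more in all 24 libraries. It had 13.8 to 1002 FPKM in Cre-positive SC (median 111), 21.2 to 590 in Cre-negative SC (median 67.2) and 20 to 174 in retina (median 44.2). Its highest values, 1002 and 590, belonged to replicate 2 of the Cre-positive and the Cre-negative SC at P7.5. The replicates 1 of the same groups stood at 84.4 and 37.2, so the replicates of a group lay further apart than the groups. Cntn1 also had a high ratio of FPKM to read level in SC, 21.9, at the 97.4th percentile.

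Nrxn3 was the neurexin with the highest level in both compartments, at a mean of 57.8 FPKM in Cre-positive SC and 4.2 in retina. The Cre-positive SC libraries ran from 3.56 to 239 FPKM with a median of 30.2, the Cre-negative ones from 0 to 109 with a median of 10.4, and the retina libraries from 0 to 14 with a median of 2.23. It reached 1 FPKM in 22 of the 24 libraries. The value of 239 belonged to adult replicate 2, whose fellow replicate was at 3.56.

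The other subfamilies were led by members at lower levels, and none of these leaders was high in all libraries of a source. Cdh4, the R-cadherin of retina, led the type I cadherins at a mean of 1.83 FPKM in Cre-positive SC and 0.806 in retina. Among type II cadherins, Cdh5 led in Cre-positive SC (mean 1.38) and Cdh8 in retina (0.203). Cdh13, the membrane-anchored T-cadherin, led the remaining cadherins at a mean of 14.9 in Cre-positive SC and 1.09 in retina. Of the delta-2 protocadherins, Pcdh18 led in Cre-positive SC (mean 1.5) through a single E17.5 library at 11.9, and Pcdh8 led in retina (0.105). The leaders of the delta-1 protocadherins (Pcdh9 and Pcdh7) and of the other protocadherins (Pcdh12 and Pcdh15) stayed at means of 0.096 FPKM or less in these compartments. No contactin-associated protein was above 0 in a Cre-positive SC library, and Cntnap2, which clusters potassium channels beside the nodes of myelinated axons, led in retina at a mean of 0.168. Nlgn2, the neuroligin of inhibitory synapses, led its family in Cre-positive SC (mean 5.5) and Nlgn3 in retina (1.2). L1cam led the L1 family at a mean of 12 FPKM in Cre-positive SC and 0.492 in retina.

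Setting Cre-positive beside Cre-negative SC asks which mRNAs were bound to axonal ribosomes above the background of the purification. At P0.5, when RGC axons branch in the SC, Cntn6, Nfasc and Cdh13 were higher in Cre-positive SC, and no member was lower. Several other members of the L1, neurexin and protocadherin families had both Cre-positive values above both Cre-negative values without passing the threshold. Here and below, the share of all genes separated in this way was not counted. It may be large, since a fit to the 4 P0.5 SC libraries alone called 59.3% of 4013 genes higher. Cntn6, contactin 6 (NB-3), was at 14.4 and 4.06 FPKM in Cre-positive SC replicates 1 and 2 and listed at 0 in both Cre-negative libraries. It was listed at 0 in the remaining 20 libraries too, so nearly all of the spread its fit could use came from these Cre-positive libraries. The fitted difference was 3.14 ± 0.44 (SE) on the log2(FPKM + 1) scale, with an adjusted p of 2.54e-04 from limma. This scale understates the change of low genes, and a difference from a group listed at 0 depends on the 1 added to each value.

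Nfasc, neurofascin, which gathers ion channels at the axon initial segment and at nodes, stood at 6.65 and 3.85 FPKM in the P0.5 Cre-positive libraries. Both Cre-negative libraries listed it at 0, and no other of the 24 libraries went above 0.988. Its difference was 2.61 ± 0.30 (adjusted p = 5.4e-05, limma). Cdh13 had 43.1 and 20.3 FPKM in Cre-positive SC against a listing of 0 in both Cre-negative libraries, a difference of 4.94 ± 1.67 (adjusted p = 0.0438, limma). A fit to the 4 P0.5 SC libraries alone widened the SE to 0.67 for Cntn6 and 0.38 for Nfasc and narrowed it to 0.48 for Cdh13. All 3 genes were separated without overlap at this stage, but only Cdh13 had comparable values at another stage, 55.2 FPKM in E17.5 Cre-positive replicate 1 and 15.2 in Cre-negative replicate 2, beside 0.0366 and 0 in the other E17.5 SC libraries.

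Next in order of p came Pcdh19, the X-linked protocadherin of epilepsy, at 6.35 and 2.99 FPKM against a listing of 0 in both Cre-negative libraries (difference 2.44 ± 0.92, adjusted p = 0.0692, limma). Chl1, the close homolog of L1, followed with 14.0 and 10.7 FPKM in Cre-positive SC and 0.488 and 0.61 in Cre-negative SC (3.10 ± 1.20, adjusted p = 0.0763, limma). Neither passed in this fit. With the replicate number as a block, Chl1 was called (3.10 ± 0.72, adjusted p = 0.0188, limma) and Cdh13 was not. Nrxn2 and L1cam also had both P0.5 Cre-positive values above both Cre-negative values. Nrxn2 had 15.6 and 23.5 against 2.66 and 3.75, the only one of these genes above 1 FPKM in both Cre-negative libraries (adjusted p = 0.376, limma). L1cam had 7.80 and 5.55 against 0.0289 and 1.23. These genes were tested with a spread that includes the E17.5 libraries, in which L1cam, for example, had 76.7 FPKM in Cre-positive replicate 1 and 0.0301 in replicate 2.

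Cntn2, the axonal TAG-1 that RGC axons carry early, had 4.57 and 1.45 FPKM in the P0.5 Cre-positive libraries and was listed at 0 in both Cre-negative ones. Its widest value of the series, 185, belonged to adult Cre-negative replicate 2. The abundant members did not separate at P0.5. Nrxn3 had 83.6 and 25.2 FPKM in Cre-positive SC against 50.3 and 16.6 in Cre-negative SC, Cntn1 had 123 and 38.8 against 320 and 69.5, and Ncam1 had 2843 and 1697 against 3639 and 1483. In each of these 3 genes the ranges of the groups overlapped, and replicate 1 was higher than replicate 2 in both groups. Nrcam and Nlgn2 were listed at 0 in all 4 P0.5 SC libraries, Nlgn1 was at 0.0659 FPKM in 1 of them, and Nlgn3 was above 1 FPKM in replicate 2 of both groups (2.27 and 1.66) and listed at 0 in replicate 1 of both.

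**Figure D3:**
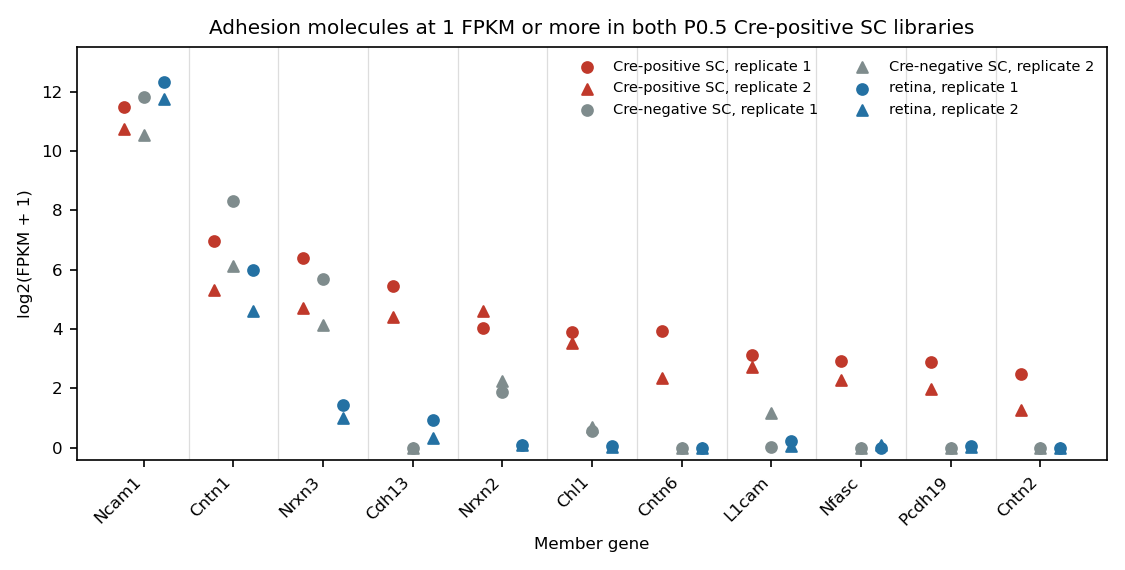
Log2(FPKM + 1) at P0.5 (vertical axis) of members at 1 FPKM or more in both Cre-positive SC libraries (horizontal axis), with a point for each of the 6 libraries, coloured by source and shaped by replicate. Cntn6, Nfasc, Cdh13, Pcdh19 and Cntn2 sit at 0 in both Cre-negative SC libraries, whereas Ncam1, Cntn1 and Nrxn3 overlap between Cre-positive and Cre-negative SC.

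These calls have to be read against all genes. At P0.5, 28.1% of the 5983 genes tested were higher in Cre-positive SC and 4.35% lower, whereas 3 of the 20 members tested (15%) were higher. The median difference was 0.68 over the 20 tested members and 0.78 over all genes on the log2(FPKM + 1) scale. The other 40 members did not reach 1 FPKM in 2 SC libraries and were not tested, and 4 of the 20 (Cntn2, Cntn6, Nfasc and Pcdh19) passed this filter only through the P0.5 Cre-positive libraries, so those had to be high there, and the p-values of Cntn6 and Nfasc do not stand apart from that selection. Among genes that passed without these libraries, 13.1% of 4716 were higher and 5.51% lower, and of the 16 such members 1, Cdh13, was higher. The share of members called was therefore not above that of genes at large. Without either one of the P0.5 Cre-positive libraries no member was called, since Cntn6 and Nfasc then left the tested genes and Cdh13 no longer passed. Without either Cre-negative library, Cntn6 and Nfasc were called and Cdh13 was not. A fit to the 4 libraries of the stage alone, which leaves out the spread of the other stages, called 9 members higher, among them Chl1, Cntn2, L1cam, Nrxn2 and Pcdh19, but also 59.3% of the 4013 genes it tested. A rewritten NOISeq, which sets a gene's change against the noise between replicates, called 5 of 21 members higher, beside 33.1% of 5500 genes.

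Markers moved with this contrast in part. The 10 RGC markers summed to between 110.6 and 301.1 FPKM in Cre-positive SC and between 199.9 and 758.4 in Cre-negative SC, with overlap. Of the 5 tested, Slc17a6, the vesicular glutamate transporter of RGC terminals, was higher (12.2 and 5.13 against 1.46 and 0.223 FPKM), and it too passed the filter only through the P0.5 Cre-positive libraries. The RGC transcription factors Pou4f1, at 231 and 86.0 against 705 and 191, and Pou4f2, at 10.05 and 1.56 against 48.2 and 5.82, were not called, and their groups overlapped. The 7 photoreceptor and 3 inhibitory neuron markers were listed at 0 in all 4 P0.5 SC libraries. The summed astrocyte markers were at 58.2 and 67.3 FPKM in Cre-positive and at 15.9 and 38.3 in Cre-negative SC, with Gfap and Aqp4 listed at 0 and Aldh1l1 called higher (19.9 and 18.2 against 0 and 0.0289). Like Slc17a6, Aldh1l1 passed the filter only through the P0.5 Cre-positive libraries and had to be high there. Of 6 microglia markers, C1qa was lower (listed at 0 in both, against 77.0 and 43.2) and the others were listed at 0. The summed oligodendrocyte markers, 84.7 and 86.6 against 86.2 and 48.1, came from Cnp alone, and the 5 endothelial markers, of which only Cldn5 was above 0, summed to 60.9 and 27.9 against 82.6 and 46.5. The part of these cells in the members' differences was not tested.

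At E17.5, as RGC axons grow into the SC, no member passed the threshold (2 had an unadjusted p under 0.05, and NOISeq called 0, beside 9.82% of genes), while 1.57% of all genes tested did. Nlgn2 had the smallest p, with 40.4 and 2.38 FPKM in Cre-positive SC against 0 and 0.612 in Cre-negative SC (difference 3.22 ± 0.91, adjusted p = 0.191, limma). Pcdh19 was listed at 0 in both Cre-positive libraries and had 16.9 and 0.294 in Cre-negative SC (-2.27 ± 0.92, adjusted p = 0.585). Pcdh17 followed with 1.17 and 0 against 13.3 and 0 (-1.36 ± 1.01). The groups did not overlap for Nlgn2 and Pcdh19, but each rested on a high replicate 1. Chl1 was present in all 4 libraries at similar height, 6.63 and 19.5 FPKM in Cre-positive and 18.2 and 28.2 in Cre-negative SC. Without Cre-positive replicate 2, Nlgn2 was called higher, and without Cre-negative replicate 2, Pcdh17 and Pcdh19 were called lower.

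At P7.5, when connections are pruned, no gene of the 5983 tested was called (0%), members included, none of which had an unadjusted p under 0.05, and NOISeq called no member, beside 9.12% of genes. The members with the smallest p were Cdh4, Pcdh10 and Cdh5. Cdh4 had 0 and 7.99 FPKM in Cre-positive SC and 1.7 and 18.8 in Cre-negative SC (-1.29 ± 1.52). Pcdh10 was listed at 0 in Cre-positive SC and had 2.65 and 0.0471 in Cre-negative SC (-0.97 ± 1.46), and Cdh5 had 1.34 and 0.0959 against 0.0374 and 0 (0.65 ± 1.02).

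In the adult, 0.150% of the genes were called, and no member was by limma, nor had any an unadjusted p under 0.05. NOISeq called 4 of 18, Nrxn3 higher and Cntn2, Pcdh7 and Pcdh10 lower, beside 16.1% of the 5156 genes it took in. All 4 rested on single libraries. Nrxn3 had 3.56 and 239 FPKM in Cre-positive SC against 3.59 and 0 (3.95 ± 1.83, adjusted p = 1, limma). Cntn2 was listed at 0 in Cre-positive SC and had 0 and 185 in Cre-negative SC (-3.77 ± 1.72), and Pcdh10 had 32.0 and 0 in Cre-negative SC only (-2.52 ± 1.46). Pcdh7 was at 46.0 FPKM in Cre-negative replicate 1, where the photoreceptor markers summed to 80.3 FPKM and the lens markers to 206.6, against at most 5 and 10.5 in the adult Cre-positive libraries. The part of such RNA in the level of Pcdh7 or Pcdh10 was not tested. Without Cre-negative replicate 1, Cntn2 was called lower in Cre-positive SC, by 7.54 on the log2(FPKM + 1) scale.

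**Figure D4:**
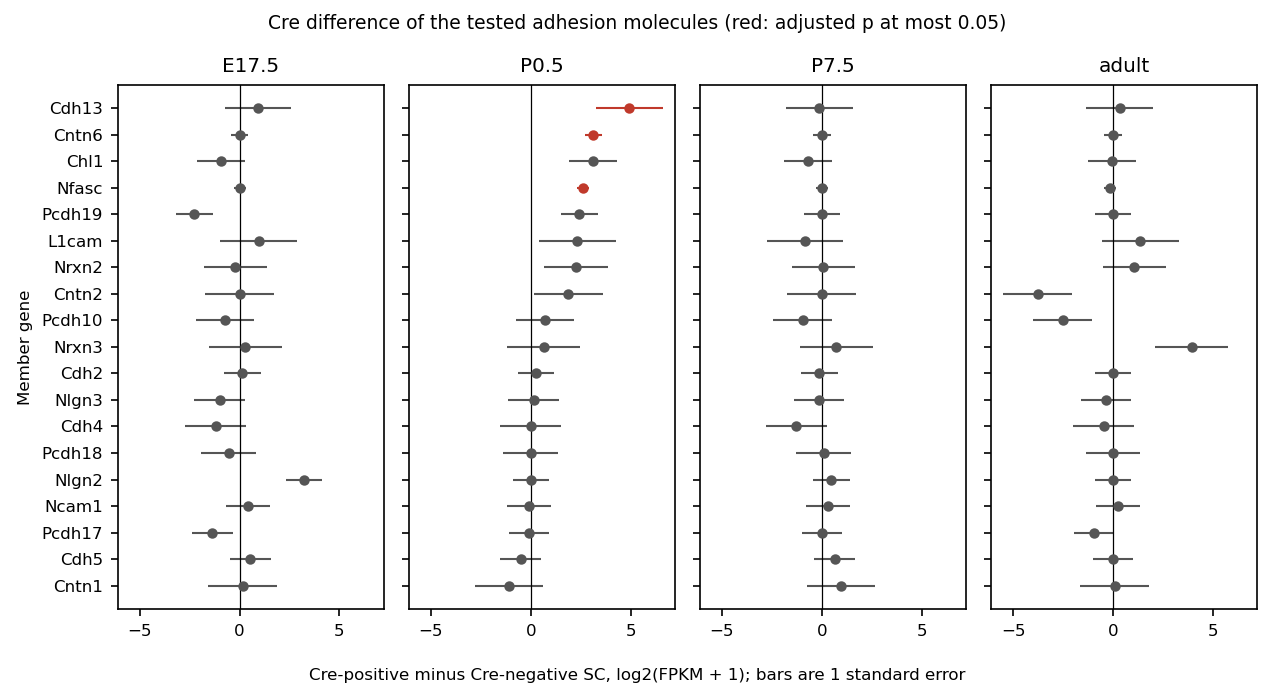
Difference between Cre-positive and Cre-negative SC in log2(FPKM + 1) (horizontal axis) of tested members (rows) at the 4 stages (panels), with bars of 1 standard error and called members in red. Cntn6, Nfasc and Cdh13 at P0.5 are the only red points.

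Comparing Cre-positive SC between successive stages asks how the members' level in that source moved with age. From E17.5 to P0.5, 25.1% of genes rose and 1.81% fell, and among the 20 tested members Nfasc and Cntn6 rose and Nlgn2 fell (NOISeq was not run on stages). Nfasc went from 0.014 and 0.00833 FPKM to 6.65 and 3.85, a difference of 2.59 ± 0.30 (adjusted p = 6.4e-05, limma). Cntn6 went from a listing of 0 to 14.4 and 4.06 (3.14 ± 0.44, adjusted p = 2.92e-04). Nlgn2 went from 40.4 and 2.38 to a listing of 0 in both P0.5 libraries (-3.56 ± 0.91, adjusted p = 0.0131), a difference that was -1.76 without E17.5 Cre-positive replicate 1 and -5.37 without replicate 2. The stages did not overlap for any of the 3 genes, but Nfasc and Cntn6 were tested only because they were high at P0.5, so their rise was built into the filter. Among genes that passed without the P0.5 Cre-positive libraries, 10.5% rose and 2.29% fell, and Nlgn2 was the single call among 16 members. Leaving out either P0.5 Cre-positive library ended all 3 calls, and leaving out E17.5 Cre-positive replicate 2 raised the count to 5. Some markers moved in the same contrast. Slc17a6 and Nefl of RGCs were higher at P0.5, by 3.15 and 4.83 on the log2(FPKM + 1) scale, and so were Cnp of oligodendrocytes (5.45) and Aldh1l1 of astrocytes (4.31). Slc17a6 and Aldh1l1 passed the filter only through the P0.5 Cre-positive libraries, so their rise was built in as well. Pou4f1 of RGCs, at 80.3 and 3501 FPKM at E17.5 and 231 and 86.0 at P0.5, overlapped and was not called.

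From P0.5 to P7.5, 0.501% of genes rose and 29.2% fell. Nfasc fell by 2.58 ± 0.30 to 0.0382 and 0 FPKM, and Cntn6 fell by 3.14 ± 0.44 to a listing of 0 (adjusted p = 6.6e-05 and 2.85e-04, limma), so both genes were seen in Cre-positive SC at P0.5 and hardly at all at the stages before and after. Their fall was likewise built into the filter, and none of the 16 members that passed without the P0.5 Cre-positive libraries was called, against 0.636% of such genes rising and 14.9% falling. Leaving out either P0.5 Cre-positive library ended both calls. Of the markers, Slc17a6 and Nefl of RGCs were lower at P7.5 (-3.08 and -4.81), while Gja1, the connexin of astrocytes, was higher (4.82). Not all markers of these lists moved this way. Pou4f1 of RGCs, at 231 and 86.0 FPKM at P0.5 and 175 and 457 at P7.5, overlapped. Aldh1l1 of astrocytes went from 19.9 and 18.2 to 0.0904 and 12.5. The summed RGC markers overlapped (110.6 and 301.1 FPKM, then 177.1 and 457.2). The summed astrocyte markers were higher at P7.5 (58.2 and 67.3, then 300.3 and 728.2). The part of these cells was not tested. Cdh13 went from 43.1 and 20.3 to 0 and 0.131 FPKM, with an adjusted p of 0.0503 just beyond the threshold. Nrxn2 went from 15.6 and 23.5 to 0.224 and 0.155, which did not pass (-4.08 ± 1.59, adjusted p = 0.0804). Between P7.5 and adult, 0.0836% of genes were called and no member was, none of them with an unadjusted p under 0.05. The smallest p belonged to Ncam1, which had 1799 and 1086 FPKM at P7.5 and 626 and 347 in the adult (-1.58 ± 1.10), with both P7.5 values above both adult ones. L1cam went from 0.0172 and 0.0713 to 5.68 and 0 (1.31 ± 1.92), and Cdh5 from 1.34 and 0.0959 to a listing of 0 (-0.68 ± 1.02).

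The difference between Cre-positive and Cre-negative SC itself changed with stage for a few members. Relative to E17.5, it was larger at P0.5 for 23.9% of all genes and smaller for 3.23%, and larger for Nfasc, Cntn6 and Pcdh19 among the members. For Pcdh19 the change was 4.71 ± 1.30 (adjusted p = 0.0208, limma), made up of 6.35 and 2.99 FPKM in Cre-positive SC at P0.5 and of 16.9 FPKM in a single Cre-negative library at E17.5. From P0.5 to P7.5 the difference grew for 2.74% of genes and shrank for 18.7%, among them Nfasc and Cntn6. All 3 genes passed the filter only through the P0.5 Cre-positive libraries, and no member that passed without them was called in either interaction.

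Cre-positive SC was compared with retina to ask which members were relatively richer in the SC purification than in that of the eye. The paper states that the animals were the same for both. Which pools belong together is not given, so the main fit treated the groups as independent. At P0.5, 26.4% of the 7193 genes tested were higher in Cre-positive SC and 1.49% lower, and 6 of the 21 tested members (28.6%) were higher and 0 lower by limma, a share near that of all genes. Of the 6, Cntn6, Nfasc and Pcdh19 passed the filter of this fit only through the P0.5 Cre-positive libraries and had to be high there. Among genes that passed without those libraries 18.5% were higher, and so were 3 of 18 members, Cdh13, Chl1 and Nrxn2. In order of p these were Cntn6, Nfasc, Chl1, Nrxn2, Pcdh19 and Cdh13, the genes whose start codons are shown above. Cntn6 was listed at 0 in both P0.5 retina libraries (difference 3.14 ± 0.38, adjusted p = 7.64e-06, limma) and Nfasc was at 0 and 0.0698 FPKM there (2.56 ± 0.39, adjusted p = 7.64e-05). Chl1 had 0.0555 and 0.0121 FPKM in retina against 14.0 and 10.7 in Cre-positive SC (3.68 ± 1.05, adjusted p = 0.0141, limma). For Nrxn2 the retina stood at 0.0713 and 0.0623 (4.24 ± 1.32, adjusted p = 0.0233). In all of these genes both Cre-positive SC libraries lay above both retina libraries.

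Pcdh19, at 0.0421 and 0.0184 FPKM in P0.5 retina, differed by 2.39 ± 0.77 (adjusted p = 0.0278), and Cdh13, at 0.927 and 0.259, by 4.30 ± 1.46 (adjusted p = 0.0372). Nrxn3 had 1.70 and 1.01 FPKM in retina against 83.6 and 25.2 in Cre-positive SC, beside 50.3 and 16.6 in Cre-negative SC. It did not pass against retina (4.34 ± 1.70, adjusted p = 0.0703, limma). Of the 6 genes, Nrxn2 was also above 1 FPKM in both Cre-negative SC libraries of P0.5, and Chl1 was between 0.488 and 0.61 there, so both also gave signal in SC without tagged ribosomes. The call of Cdh13 was lost when the replicate number was added as a block, which called 5 members. Without either P0.5 retina library the calls were Cntn6 and Nfasc. Without P0.5 Cre-positive replicate 2 the single call was Pcdh19, and without replicate 1 there was 0. Lens markers summed to 161.1 and 268.1 FPKM in the P0.5 retina libraries and to at most 1.7 in the SC libraries of that stage, and Cldn5 of endothelium (60.9 and 27.9 against 0.678 and 0.438 FPKM) and Cnp of oligodendrocytes (84.7 and 86.6 against 3.77 and 2.79) were higher in SC. Astrocyte markers went both ways, with Aldh1l1 higher in SC and Gja1 lower (12.9 and 15.8 against 131 and 96.0). Aldh1l1 passed the filter of this fit only through the P0.5 Cre-positive libraries. The astrocyte markers summed to 58.2 and 67.3 FPKM in SC and 97.1 and 132.8 in retina. The part of these cells was not tested.

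At the other stages no member was called against retina. At E17.5, where 1.32% of all genes were, 2 members had an unadjusted p under 0.05. Chl1 had 6.63 and 19.5 FPKM in Cre-positive SC and 0 and 0.84 in retina, with no overlap (3.20 ± 1.05, adjusted p = 0.224, limma), and its level in Cre-negative SC was as high as in Cre-positive SC. Nlgn2 had 40.4 and 2.38 against 0.172 and 4.73 (2.19 ± 0.93), and Ncam1 781 and 4193 against 9060 and 6767 (-2.11 ± 1.03). Without E17.5 Cre-positive replicate 2, Cdh5, L1cam and Nlgn2 were called higher. At P7.5 no gene was called (0%), and no member had an unadjusted p under 0.05. Nlgn1, which was listed at 0 in the Cre-positive libraries and had 0.954 and 0.239 FPKM in retina, had the smallest p (-0.64 ± 0.40), followed by Cntn1 (2.42 ± 1.69). In the adult, 0.0973% of genes were called, and 1 member had an unadjusted p under 0.05. That was Nrxn3, at 3.56 and 239 FPKM against 0 and 2.76 in retina (4.09 ± 1.70, adjusted p = 0.609). Ncam1 (-1.44 ± 1.03) and Nfasc (-0.49 ± 0.39) came after it.

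Within retina, P7.5 and adult were compared with E17.5 and P0.5. The filter left only 6 members, Ncam1, Cntn1, Nrxn3, Cdh4, Nlgn2 and Nlgn3, since most were below 1 FPKM in the eye at all ages. None passed, against 0.956% of the 4080 genes tested, and 1 had an unadjusted p under 0.05. Ncam1 had 9060 and 6767 FPKM at E17.5, 5090 and 3474 at P0.5, 4290 and 2206 at P7.5 and 674 and 2364 in the adult (-1.54 ± 0.61, adjusted p = 0.375, limma). All 4 E17.5 and P0.5 values but 1 lay above all later ones, the exception being 3474 at P0.5 below 4290 at P7.5. Cdh4 had 2.52 and 3.01 FPKM in E17.5 retina and at most 0.25 in the 6 later libraries (-0.96 ± 0.63), and Cntn1 differed by 0.45 ± 1.07.

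The genes that work with these adhesion molecules were examined as 5 lists, none of whose members is among the 60. At P0.5, Cre-positive SC was higher than Cre-negative SC for 1 of 4 tested catenins, 2 of 6 ankyrins and spectrins, 3 of 13 other partners of neurexins and neuroligins, 1 of 5 sheddases and 1 of 10 other immunoglobulin adhesion molecules. A single gene of the lists was lower, Lrrtm1, a postsynaptic ligand of neurexins (0.249 and 0.188 FPKM against 28.3 and 7.54). Beside the share of 28.1% of all genes, these counts are not high. Of the 8 genes called higher, 6 (Jup, Sptbn4, Clstn2, Lin7b, Ncstn and Pvrl2) passed the filter only through the P0.5 Cre-positive libraries, so they too had to be high there.

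Among the ankyrin and spectrin genes, which hold the tails of neurofascin and L1 at the axon's membrane skeleton, Sptbn4, the beta-IV spectrin of the initial segment and nodes, had 1.38 and 1.34 FPKM in Cre-positive and 0 and 0.0369 in Cre-negative SC at P0.5 (1.21 ± 0.18, adjusted p = 3.32e-04, limma). Its groups did not overlap, at a low level. The catenin called was Jup, plakoglobin, which can take the place of beta-catenin on cadherins, at 15.7 and 4.63 against 0 and 0.0174 (3.26 ± 0.55, adjusted p = 8.27e-04). Lin7b, part of the presynaptic scaffold below neurexins, had 124 and 92.3 FPKM against a listing of 0 in both Cre-negative libraries (6.75 ± 1.23, adjusted p = 0.00149). The calsyntenins Clstn3 and Clstn2, which bind neurexins, were higher as well, Clstn3 at 12.9 and 9.73 against 0.0386 and 0.285 and Clstn2 at 6.68 and 1.09 against a listing of 0. Ncstn, the nicastrin subunit of gamma-secretase, had 11.8 and 2.84 FPKM and Pvrl2, a nectin, had 48.5 and 18, each listed at 0 in Cre-negative SC.

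Against retina at P0.5 the same lists had 3 of 6 catenins, 4 of 6 ankyrins and spectrins, 4 of 14 partners, 1 of 5 sheddases and 4 of 11 immunoglobulin molecules higher and none lower by limma, beside 26.4% of all genes higher. Sptbn1, the general beta-II spectrin of axons, was called in this contrast with 593 and 395 FPKM in Cre-positive SC against 0.538 and 0.467 in retina. In Cre-negative SC, however, it still had 268 and 65.9.

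The run-off experiment asked whether the ribosomes on an mRNA were moving. Tissue lysate was incubated before the purification, so that elongating ribosomes could finish and leave while new initiation was blocked, and an mRNA held only by such ribosomes should then no longer be pulled down. Of the 12 members with a read in an adult SC library, 11 had fewer reads with run-off, 7 of them none at all, and of 25 members in retina 23 had fewer and 19 none. The background was as high, since 84.9% of 5871 genes in SC and 92.1% of 9464 in retina had fewer reads. The share of all genes left with no read was not counted. The SC libraries held 349395 reads on genes with run-off and 3262914 without (10.7%), and the retina libraries 315009 and 4686284 (6.72%). Library input had been adjusted to the amount of cDNA, so raw reads were compared first. When each library was scaled to its total of reads on genes (CPM), 8 of the 12 SC members and 20 of the 25 retina members were lower with run-off, beside 72.3% and 71.9% of all genes. There are no replicates here, and intervals given are exact binomial (Clopper-Pearson) 95% intervals that cover counting error only.

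Without run-off, Cdh4 had more reads in SC than any other member, 498, and with run-off it had 0. That is at least 166-fold fewer reads and at least 17.8-fold lower by CPM, taking 3 reads as the most that a count of 0 allows (8.59 CPM in that library). Cntnap2 went from 286 reads to 0, at least 95.3-fold fewer and at least 10.2-fold lower by CPM. By these bounds, the reads of the 2 members fell further than the library total. The bounds cover counting error of the 0 only and take the count without run-off as it stands. By the 95% intervals, Cdh4 had 140 to 167 CPM without run-off and 0 to 10.6 with it. Cntnap2 had 77.8 to 98.4 and 0 to 10.6. Without replicates, dropout of a gene from a library apart from run-off was not tested. In the adult FPKM libraries, Cdh4 had 5.93 and 0 FPKM in Cre-positive and 12.1 and 0 in Cre-negative SC, so its groups overlapped, and Cntnap2 was listed at 0 in all 4.

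Other members kept reads. Ncam1 went from 322 to 39 reads in SC, with 12.1% left, about the ratio of the library totals, and stood at 98.7 CPM (88.2 to 110) without and 112 CPM (79.4 to 153) with run-off. Nlgn2 went from 284 to 53 reads, and so fell to 18.7% by raw reads while its CPM was higher with run-off, at 152 (114 to 198) against 87.0 (77.2 to 97.8). Cntn1 kept 70 of 124 reads, which was 56.5%, and its CPM was also higher with run-off, at 200 (156 to 253) against 38.0 (31.6 to 45.3). Thus the direction for Nlgn2 and Cntn1 in SC depended on whether reads or CPM were compared. Nrxn2 had 31 reads without and 2 with run-off, with CPM intervals that overlap (6.46 to 13.5 and 0.693 to 20.7). Nlgn3 was the single member with more reads, 0 without and 4 with run-off.

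In retina, Cntn1 had 933 reads without and 56 with run-off, which left 6% and nearly the same CPM, 199 (187 to 212) and 178 (134 to 231). Ncam1 kept 146 of 509 reads, 28.7%, and its CPM was 4.27 times as high with run-off. Several members of lower count were not seen with run-off. For most of them the library was too shallow to place the fall in reads beyond that of the whole, even by counting error alone. Nlgn1 went from 81 reads to 0, at least 27-fold fewer and at least 1.81-fold lower by CPM, and Nfasc from 61 to 0, at least 20.3-fold fewer and at least 1.37-fold lower by CPM. Nrxn3 (20 reads), Pcdh19 (16), Ncam2 (9) and Nrxn2 (4) also went to 0, each with a CPM without run-off below the 9.52 that a count of 0 allows with it. Nlgn3 had 9 reads without and 4 with run-off, and Nlgn2 6 and 2. Pcdh7 ran the other way, from 0 reads without to 33 with run-off, and Nrcam from 0 to 5.

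**Figure D5:**
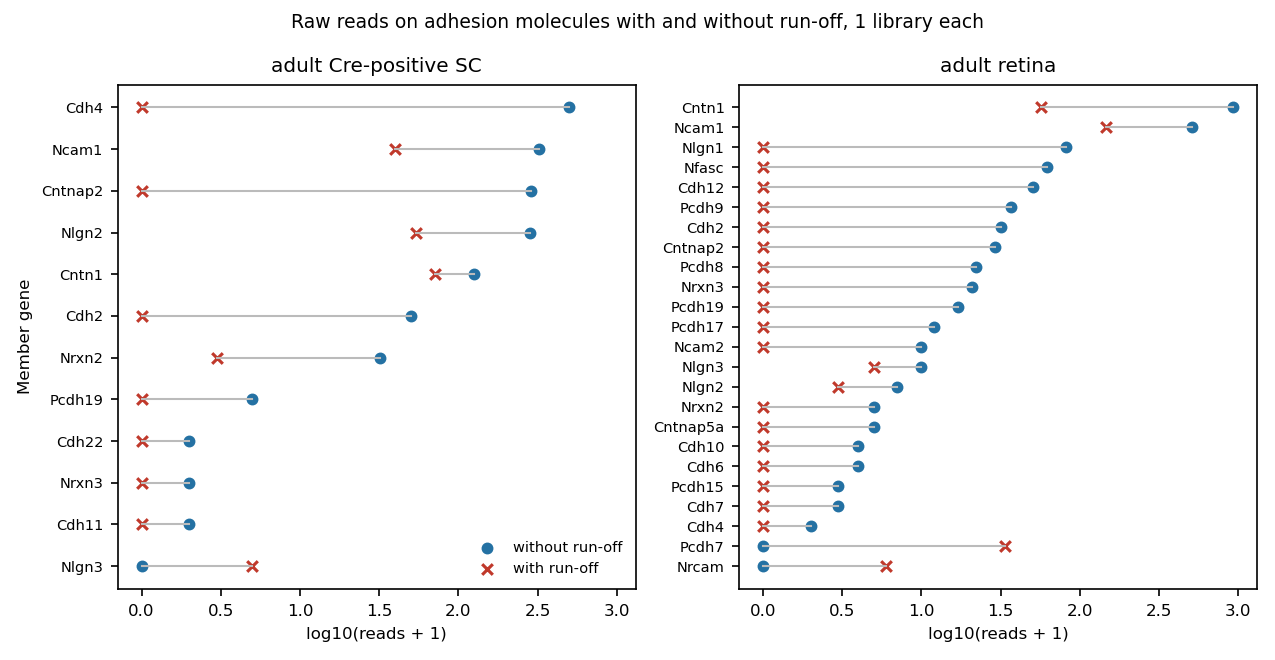
Raw reads, as log10(reads + 1) on the horizontal axis, on members with a read in adult Cre-positive SC (left) and adult retina (right), without run-off (blue dots) and with run-off (red crosses), 1 library each. In SC, Cdh4 and Cntnap2 drop from 498 and 286 reads to 0, while Ncam1, Nlgn2 and Cntn1 keep 39 to 70 reads.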

How the data were processed

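Ribosome-bound mRNA was measured in 24 libraries and, for run-off, in 4 more. Per the labels and methods, the authors mapped reads to mm10 with TopHat2 2.0.12 and deposited FPKM from Cufflinks 2.2.1, and for the run-off libraries read counts per gene from HTSeq 0.6.1p1, neither normalized further. The members and gene lists were chosen with earlier results of these data known. Genes with a missing entry (4) were left out. log2(FPKM + 1) was fitted with limma 3.58.1 (statmod 1.5.0, R 4.3.3; trend and robust moderation) for genes at 1 FPKM or more in 2 libraries of the fit: 16 SC libraries in 8 groups, all 24 in 12, or the 8 retina libraries. P-values are two-sided, adjusted by Benjamini and Hochberg, with a threshold of 0.05. NOISeq was rewritten (probability 0.7). Both were tested on simulated data. Counts were compared raw and as CPM; depth of the FPKM libraries is unknown, and PCR reads are not independent molecules, so intervals cover counting error only. Named members were those called in a contrast (or the 3 smallest p), subfamily leaders in Cre-positive SC and retina, all neurexins, neuroligins, NCAMs and L1 family members, and those with 100 reads without run-off, plus up to 3 called genes of each partner list. Some genes under this rule are not reported here. All 60 symbols matched GENCODE. Tables were handled in Python 3.11.15. Alternatives were another pseudocount, no filter, median-ratio scaling, a replicate block, leaving out libraries, single-stage fits and NOISeq; those for the stage by Cre interaction, and the counts over genes that passed the filter without the P0.5 Cre-positive libraries, were chosen after seeing the data.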

Additional observations from a re-analysis of the deposited data

Results flagged for a closer look

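The difference between Cre-positive and Cre-negative SC changed between stages, by limma's test of the interaction, in 5 cases among the members. That is 3 of 20 members (15%) beside 23.9% of all genes in the first interaction and 2 of 20 (10%) beside 18.7% in the second. Nfasc, Cntn6 and Pcdh19, the genes of all 5 cases, were tested only because they reached 1 FPKM in the P0.5 Cre-positive libraries, so a difference centred on P0.5 was built into the choice of genes tested. From E17.5 to P0.5 it grew by 2.59 for Nfasc (SE 0.42, adjusted p = 0.0011), by 3.14 for Cntn6 (SE 0.63, adjusted p = 0.00372) and by 4.71 for Pcdh19 (SE 1.30, adjusted p = 0.0208) on the log2(FPKM + 1) scale. From P0.5 to P7.5 it changed by -2.58 for Nfasc (adjusted p = 0.00125) and by -3.14 for Cntn6 (adjusted p = 0.00426). For Nfasc and Cntn6 these values all rest on the same P0.5 Cre-positive libraries, and the Pcdh19 value includes the 16.9 FPKM of E17.5 Cre-negative replicate 1. With the replicate block Chl1 was called as well in both interactions, at 4.02 (adjusted p = 0.0308) and -3.79 (adjusted p = 0.0437).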

How the results depend on the processing

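Of 64 alternatives for counts of members (leaving out a library aside), 58 stayed within 1.5 times, and of 99 alternatives for single members, 72 kept their call, 27 lost it in the same direction and 0 reversed. NOISeq called 4 members in the adult (limma 0; 16.1% of all genes by NOISeq) and 5 of 21 higher at P0.5 (limma 3; 33.1% of all genes by NOISeq), among them Cdh13, Chl1, Cntn6 and Nrxn2, where the fit to the 4 libraries of the stage called 9 (59.3% of all genes). Without a filter, 1 member was called against retina at E17.5, Cdh20, lower in Cre-positive SC and named after its values were seen. Asking for 10 reads left 7 of 7 members with fewer reads in SC (90.2% of all genes) and 13 of 14 in retina (93.5%), by fewer members being counted. By CPM, 4 of the 7 were lower in SC (75.9% of all genes) and 12 of the 14 in retina (68.4%). Leaving out a library gave, for Cre, 0 to 2 members at E17.5 and at P0.5, 0 at P7.5 and 0 to 1 in the adult. For stages it gave 0 to 5 (P0.5 against E17.5), 0 to 2 (P7.5 against P0.5) and 0 (adult against P7.5), and against retina 0 to 3 at E17.5, 0 to 2 at P0.5 and 0 at P7.5, in the adult and within retina. A lone replicate was assumed to vary like the other groups. Median-ratio scaling moved the all-gene median by over 0.1 in the P0.5 minus E17.5 interaction (1.59 to 1.48) and within retina (0.061 to -0.057, with 39 called genes falling to 22), and changed no member's call. Replicate differences of Cre-positive and Cre-negative SC correlated across genes at 0.417, 0.426, 0.324 and 0.0596 from E17.5 to adult, a hint of variation shared by number before the adult. Those of Cre-positive SC and retina correlated at 0.129, 0.410, 0.360 and -0.0315. Cre-positive and Cre-negative animals were littermates, and by the paper axons and retina were taken from the same animals. The sources used here do not say which number stands for which litter or animals, so the block was kept as an alternative. With the replicate block, 3 members were called for Cre at P0.5 (Chl1, Cntn6 and Nfasc, without Cdh13), 5 against retina and 4 in the interactions. The shares of all genes called with the block or without a library are not given here. These counts thus show only how far the members' calls held and are not results about the members. Values of a few reads limit the adult libraries most.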
